A study of Caenorhabditis elegans with 12 samples.

Results

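Cytochrome P450 genes were taken from a table of mRNA levels in Caenorhabditis elegans as the entries whose gene name begins with cyp- and a number and whose mean level over the 6 columns was 1 or more. The level is in FPKM, that is, sequenced fragments divided by transcript length and by the depth of the library. The names fit 81 of the 46245 genes listed, and 64 of these passed the level filter, among 13337 genes of any kind that did. Worms of the strain glp-4(bn2), whose temperature-sensitive mutation limits the germ line, were sampled whole on day 1 of adulthood after culture at 20 °C. All were fed RNAi bacteria, carrying the L4440 vector without insert or a clone for RNAi of hda-1, which encodes a histone deacetylase of class I, or of dve-1, which encodes a homeodomain factor needed for the mitochondrial unfolded protein response (UPRmt). In each of these 3 backgrounds a further group also received atp-2 RNAi bacteria, aimed at the ATP synthase subunit beta, which per the labels were seeded 30 h after the start. The study's methods also give 30 h for double RNAi in UPRmt induction, but an earlier switch to atp-2 RNAi for the mRNA sequencing. Its text speaks of wild-type animals where the labels give glp-4(bn2). The labels were followed here, and neither difference could be settled from the table. This made 6 groups of 2 libraries. The deposited table holds 1 combined value per gene and group, which leaves the replicate spread unknown, and no comparison could be tested. A gene is called higher or lower here when its ratio was 2-fold or more on FPKM + 1 and its level reached 5 FPKM in the higher column. Such a call describes the size of a difference between these columns, and "rose" and "fell" are used of called genes alone.

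Cytochromes P450 are haem-containing monooxygenases that insert an oxygen atom into lipids, sterols, plant and bacterial compounds and drugs, with electrons passed on from NADPH by the P450 reductase and in some reactions by cytochrome b5. The nematode family has expanded by local duplication, so that many members stand in tandem arrays, and much of it is known from the intestine, the main organ of detoxification in the worm. The families numbered 13, 25 and 43 belong to the same clan as the vertebrate CYP3 enzymes, which handle foreign compounds, families 14 and 33 to 36 to the CYP2 clan, and families 29, 31, 32, 37 and 42 to the CYP4 clan of fatty acid hydroxylases.

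The knocked-down genes were looked at before the P450 genes. On chromosome V (14525389 to 14527411), hda-1 was listed at 18.8 and 21.0 FPKM in L4440 without and with atp-2 RNAi, at 1207 and 811 in the labelled hda-1 columns, and at 24.0 and 25.1 in dve-1 RNAi. Its signal was thus 64.1 and 38.5 times that of L4440 where a knockdown would lower it. These are therefore called the labelled hda-1 columns throughout, since a lower hda-1 level was not seen in them. Every direction below is that of the label. By qRT-PCR, the study compared hda-1 mRNA in wild-type worms on control and hda-1 RNAi and reports a significant difference. Those measurements are separate from these columns. The dve-1 gene stood in its own columns at 43.8% of L4440 without atp-2 RNAi and 73.1% with it. The atp-2 gene was left at 54.6% in L4440, 64.3% in the labelled hda-1 columns and 38.8% in dve-1 RNAi. The columns were alike in depth, where 5 FPKM over 1 kb came to an estimated 80.5 to 92.4 fragments. Sperm genes differed most among the cell type markers, with 17 of 19 kept and sums of 181 and 236 FPKM in L4440, 5.75 and 3.70 in the labelled hda-1 columns (12 and 11 of the 19 at 0, all of them msp or ssp genes) and 752 and 599.6 in dve-1 RNAi. The 10 intestine markers, none at 0 in any column, summed to 7074 and 6927, to 11030 and 9123, and to 9709 and 9722 in the same order. These sums rest on a few abundant genes, and single markers differed in direction. Without atp-2 RNAi, cpr-1 was at 22.2 FPKM in L4440, 1687 in the labelled hda-1 column and 2123 in dve-1 RNAi. In the same columns ges-1 was at 126, 69.0 and 120 FPKM, and act-5 at 630, 752 and 350. Body wall muscle (7 of 7 kept) and oocyte and early germ line (11 of 11) markers gave no call in any comparison. Nor did pharynx (4 of 4) and hypodermis (4 of 7) markers. Of these, puf-5, egg-1, oma-1, oma-2 and dpy-13 never reached 5 FPKM and could not be called. Uncalled markers could still differ. With atp-2 RNAi, the oocyte and early germ line median log2 ratio was 0.57 in L4440. It was 0.52 in the labelled hda-1 columns and 0.36 in dve-1 RNAi. Against L4440 without atp-2 RNAi, it was 0.68 in dve-1 RNAi and -0.09 in the labelled hda-1 column. The pharynx median there was 0.15 and 0.58 in the same order. Of 7 neuronal markers, sbt-1 rose in the labelled hda-1 column and unc-119 in dve-1 RNAi without and with atp-2 RNAi.

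The 64 members fell into 24 subfamilies. By clan, 36 were CYP2-like, 14 CYP3-like and 12 CYP4-like, and the other two were cyp-44A1, of the mitochondrial type of P450, and cyp-23A1. Chromosome V held 35 of them, chromosome II 10, IV 7, X 6, III 5 and I 1. In L4440 without atp-2 RNAi the P450 genes were mostly low. Their median was 4.12 FPKM against 7.77 over all genes kept, and 28 of 64 reached 5 FPKM (43.8%, against 60.3% of all genes kept). In the labelled hda-1 column the median was 12.3 FPKM against 9.59, and 48 members reached 5 FPKM (75%, against 67.7%). Members under 1 FPKM numbered 16 in L4440, 1 in the labelled hda-1 column and 6 in dve-1 RNAi. The share of all genes kept that lay under 1 FPKM was not counted. For 6 members, with a mean under 1 FPKM over the columns not labelled hda-1, the level filter built in this contrast. The summed level moved less, from 1231 FPKM in L4440 to 1216 in the labelled hda-1 column, since a few abundant members make up most of it. It was highest, at 1584 FPKM, in L4440 with atp-2 RNAi. Of the 64 genes, 24 had their lowest level in L4440 without atp-2 RNAi (37.5%, against 35.7% of all genes kept) and 20 their highest in the labelled hda-1 column without it (31.2%, against 16.4%).

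**Figure D1:**
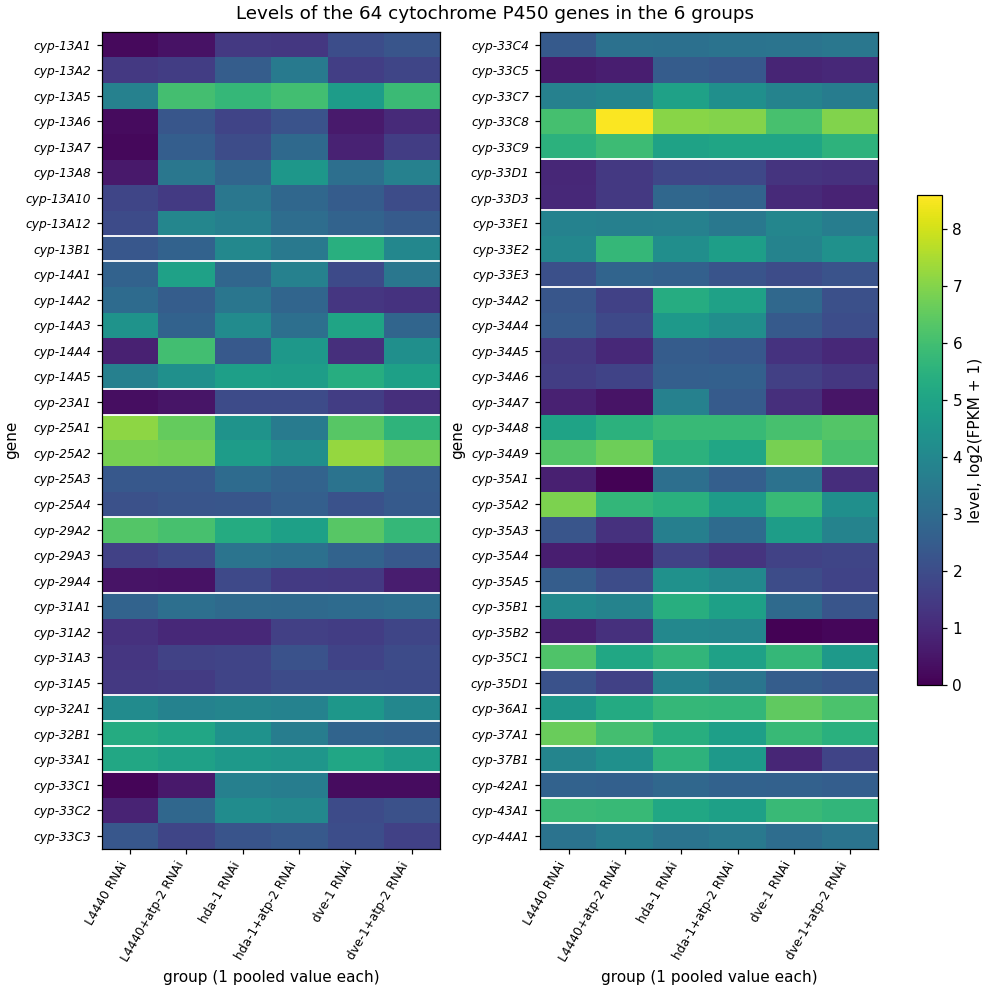
Level of each of the 64 cytochrome P450 genes in the 6 groups, as log2(FPKM + 1) in colour, with 1 combined value per group and white lines between subfamilies. The dark cells of the L4440 column (16 genes under 1 FPKM) are mostly lighter in the labelled hda-1 column (1 gene under 1 FPKM). The share of all genes kept under 1 FPKM was not counted. Levels of 5 FPKM or more were found in 43.8% and 75% of members in these columns, against 60.3% and 67.7% of all genes kept. Of the 64 genes, 6 had a mean under 1 FPKM over the columns not labelled hda-1. These passed the level filter through the columns where they are high.

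The counts depend on the level filter. The member nearest above it was cyp-29A4 (mean 1.24 FPKM), the only one that would have failed without its highest column, and the gene nearest below it was cyp-13A11 (mean 0.811). A further 5 members, cyp-23A1, cyp-33C1, cyp-33C5, cyp-34A7 and cyp-35B2, like cyp-29A4, had a mean under 1 over the 4 columns not labelled hda-1. Of the 64, 12 reached 5 FPKM in none of the columns and could not have been called, 39 were called in at least 1 of the 7 pairwise comparisons (60.9%, against 22.7% of all genes kept) and 25 in none. Aligned reads were kept where they mapped uniquely, so fragments of near-identical copies may have been dropped, and 7 members overlap a protein-coding gene: cyp-31A5, cyp-33E3, cyp-36A1, cyp-37A1, cyp-37B1 and cyp-43A1 on the opposite strand and cyp-44A1 on the same strand. Strandedness of the libraries is not given in the sources used here, and fragments of the overlapping genes could not be told apart.

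On the empty vector, mitochondrial stress by atp-2 RNAi came with calls of single P450 genes in both directions. With atp-2 RNAi in L4440, 8 of the 64 members were called higher (12.5%, against 1.89% of all genes kept) and 3 lower (4.69%, against 0.652%). The genes that rose were cyp-14A4, cyp-13A8, cyp-33C8, cyp-13A5, cyp-14A1, cyp-33C2, cyp-13A12 and cyp-33E2, and those that fell were cyp-14A3, cyp-35A2 and cyp-35C1. The median log2 ratio over the members was 0.15, beside 0.11 over all genes kept. It was 0.02 under median-of-ratios scaling, beside -0.02 over all genes kept, and 0.05 under upper-quartile scaling, beside 0.0. The lower and upper quartiles of the members lay at -0.31 and 0.48, those of all genes kept at -0.06 and 0.32. None of the 12 CYP4-like genes was called, of which 8 reached 5 FPKM in any column. With 2.54% of all genes kept called in either direction, none of 12 is near that share. The comparison addressed the stress response of worms in which hda-1 and dve-1 were left alone. In these whole-worm values, fewer cells of a type and less RNA per cell cannot be told apart. Levels given below in pairs are without and then with atp-2 RNAi.

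The 14A genes held the largest response and also one of the decreases. cyp-14A4 (chromosome X, 13282043 to 13284197) was at 0.739 and 62.5 FPKM in L4440, at 4.30 and 22.8 in the labelled hda-1 columns and at 1.23 and 18.3 in dve-1 RNAi. It is a gene whose reporter is known to respond to mitochondrial dysfunction through the nuclear receptor NHR-45, and it was the only member called higher with atp-2 RNAi in all 3 backgrounds, at log2 ratios of 5.19, 2.17 and 3.11. Its ratio in L4440, 84.6-fold, rests on a level of about 18.4 fragments without atp-2 RNAi. cyp-14A1, at the other end of the same array, was at 5.59 and 29 FPKM in L4440, at 6.08 and 12.7 in the labelled hda-1 columns and at 2.79 and 9.61 in dve-1 RNAi. It rose with atp-2 RNAi in L4440 (2.19) and in dve-1 RNAi (1.49), and its 0.96 in the labelled hda-1 columns was just short of a call. cyp-14A3, between them, was at 20.5 and 5.47 FPKM in L4440, at 16.6 and 7.85 in the labelled hda-1 columns and at 31.4 and 5.94 in dve-1 RNAi. It was thus lower with atp-2 RNAi in each background and called so in L4440 (-1.74) and dve-1 RNAi (-2.22). The 2 remaining 14A genes were not called with atp-2 RNAi. cyp-14A2 was at 7.02 and 4.84 FPKM in L4440, at 9.37 and 5.91 in the labelled hda-1 columns and at 1.59 and 1.42 in dve-1 RNAi. cyp-14A5, which lies apart on chromosome V, was at 12.4 and 18.8, at 27.9 and 26.3 and at 39.9 and 28.7 FPKM in the same order. cyp-14A5 was highest in dve-1 RNAi alone, and cyp-14A2 lowest in dve-1 RNAi combined with atp-2 RNAi.

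The 13A genes were the subfamily with the highest median of those with 4 or more members, at a log2 ratio of 2.02 for atp-2 RNAi in L4440, with 3 of 8 called. cyp-13A8 (chromosome II, 9805600 to 9807569) was at 0.512 and 9.70 FPKM in L4440, at 5.99 and 22.4 in the labelled hda-1 columns and at 7.84 and 12.8 in dve-1 RNAi. Its L4440 level without atp-2 RNAi lay far under the other 5. cyp-13A5 was the most abundant 13A gene, at 12.7 and 64.7 FPKM in L4440, at 52.5 and 63.3 in the labelled hda-1 columns and at 26 and 57.8 in dve-1 RNAi. The 3 columns with atp-2 RNAi were within 57.8 to 64.7 FPKM, and those without ranged from 12.7 to 52.5. cyp-13A12, known from the response to reoxygenation downstream of EGL-9 and HIF-1, was at 2.88 and 14.5 FPKM in L4440, at 12 and 7.49 in the labelled hda-1 columns and at 5.70 and 4.50 in dve-1 RNAi. It was lower with atp-2 RNAi in these other backgrounds, though not called. cyp-13A6 and cyp-13A7, beside cyp-13A8, had log2 ratios of 2.04 and 2.39 in L4440 and were not called because their levels stayed under 5 FPKM there. cyp-13A6 was at 0.194 and 3.90 FPKM in L4440, and cyp-13A7 at 0.134 and 4.93. Over all columns cyp-13A6 ranged from 0.194 to 3.90 FPKM, cyp-13A7 from 0.134 to 6.71 and cyp-13A1 from 0.163 to 3.82, and each of these was lowest in L4440 without atp-2 RNAi.

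In the CYP2 clan, 3 genes of family 33 rose with atp-2 RNAi in L4440. cyp-33C8 (chromosome V, 3800782 to 3803542), the P450 gene with the highest mean over the 6 columns, was at 65.3 and 372 FPKM in L4440, at 133 and 126 in the labelled hda-1 columns and at 66.7 and 125 in dve-1 RNAi. Its level with atp-2 RNAi in L4440 stood apart from the other 5 columns, none of which was above 133 FPKM, and the log2 ratio was 2.49. The study chose this gene on these samples and then measured it by qPCR in independent experiments, on worms described as wild-type. It reports that atp-2 RNAi induced the gene significantly less when hda-1 or dve-1 was targeted as well. The choice of the gene thus rests on these columns, while the qPCR measurements are separate from them. cyp-33C2 was at 0.805 and 6.27 FPKM in L4440, at 17.2 and 15.3 in the labelled hda-1 columns and at 2.90 and 3.41 in dve-1 RNAi. Its log2 ratio in L4440 was 2.01, and the call was lost with a pseudocount of 5. cyp-33E2 (chromosome IV, 8612334 to 8614698), which acts in eicosanoid production and pharyngeal pumping, was at 14.8 and 52.2 FPKM in L4440, at 18.2 and 27.3 in the labelled hda-1 columns and at 13.4 and 19.6 in dve-1 RNAi. Its log2 ratio was 1.75 in L4440.

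Family 35 takes in genes induced by foreign compounds and linked to fat storage, and 2 of its 9 members fell with atp-2 RNAi in L4440. cyp-35A2 (chromosome V, 7362319 to 7364182) was at 119.6 and 50.3 FPKM in L4440, at 43.4 and 25.2 in the labelled hda-1 columns and at 54.9 and 18.7 in dve-1 RNAi. It was highest in L4440 without atp-2 RNAi, and it fell with atp-2 RNAi in L4440 (-1.23) and in dve-1 RNAi (-1.51). cyp-35C1 was at 74.3 and 34.2 FPKM in L4440, at 49.6 and 29.6 in the labelled hda-1 columns and at 52.2 and 23.5 in dve-1 RNAi. It fell by a log2 ratio of -1.10 in L4440 and -1.12 in dve-1 RNAi. All 5 genes of subfamily 35A had negative ratios for atp-2 RNAi in L4440, from -1.23 to -0.18 with a median of -0.70, while cyp-35A2 was the one called. Of the uncalled others, cyp-35D1 was at -0.49, cyp-35B1 at -0.24 and cyp-35B2 at 0.44.

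**Figure D2:**
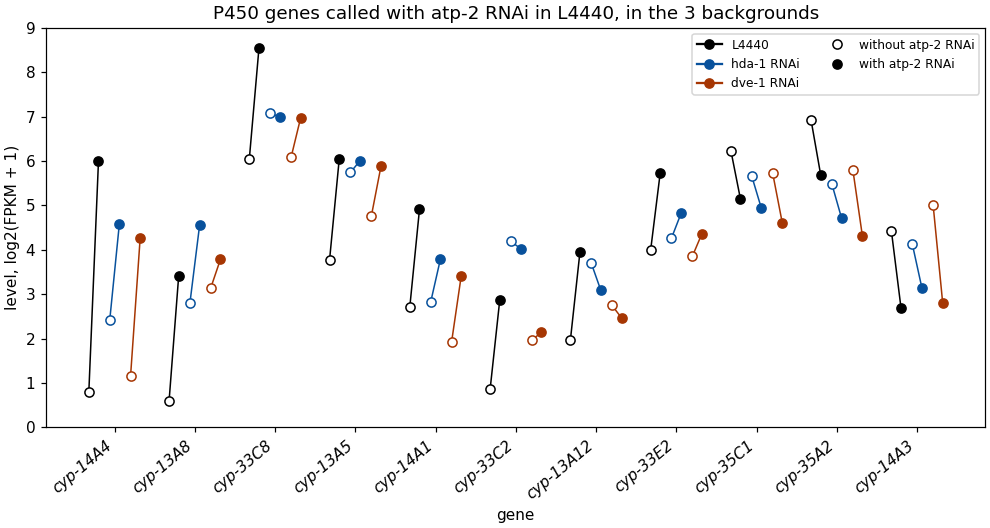
Level, as log2(FPKM + 1), of the 11 P450 genes called with atp-2 RNAi in L4440, with each background drawn as a pair joined by a line: open points are without and filled points with atp-2 RNAi, 1 combined value each. The L4440 line is steepest for the 8 genes that rose, and cyp-14A3, cyp-35A2 and cyp-35C1 slope down in every background.

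In the other backgrounds, 2 and 3 P450 genes were called higher with atp-2 RNAi, where 8 had been in L4440. In the labelled hda-1 columns, 2 members were called higher with atp-2 RNAi (3.12%, against 0.742% of all genes kept) and 1 lower (1.56%, against 0.645%). They were cyp-14A4, cyp-13A8 (log2 ratio 1.74) and, lower, cyp-34A7 (-1.30). The median over the members was -0.15, beside 0.06 over all genes kept. The split was 2 higher and 3 lower under median-of-ratios scaling, 2 of each under upper-quartile scaling, and 5 higher and 11 lower at 1.5-fold. In dve-1 RNAi, 3 were called higher (4.69%, against 0.997%) and 5 lower (7.81%, against 1.56%), with a median of -0.20 beside 0.02. Those that rose were cyp-14A4, cyp-14A1 and cyp-13A5 (1.12), and those that fell were cyp-14A3, cyp-35A1 (-2.11), cyp-35A2, cyp-13B1 (-1.44) and cyp-35C1. With a pseudocount of 5 the calls of cyp-34A7 and, in dve-1 RNAi, cyp-14A1 were lost.

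The difference between backgrounds was read directly, as the atp-2 response (log2 ratio) in the other background minus the one in L4440. For hda-1, 11 members were called lower (17.2%, against 2.35% of all genes kept) and 0 higher (against 1.2%). The differences were -3.02 for cyp-14A4, -2.61 for cyp-13A12, -2.57 for cyp-33C8, -2.17 for cyp-33C2, -2.0 for cyp-13A5, -1.44 for cyp-13A7, -1.29 for cyp-37B1, -1.23 for cyp-14A1, -1.19 for cyp-33E2, -1.08 for cyp-13A8 and -1.06 for cyp-33E3. For dve-1, 12 were called lower (18.8%, against 2.77%) and 0 higher (against 1.14%). These were cyp-13A12 (-2.28), cyp-13A8 (-2.18), cyp-14A4 (-2.08), cyp-13B1 (-1.84), cyp-33C2 (-1.83), cyp-33C8 (-1.60), cyp-35A1 (-1.41), cyp-33E2 (-1.24), cyp-13A5 (-1.14), cyp-34A9 (-1.10), cyp-14A5 (-1.02) and cyp-36A1 (-1.0). Both differences subtract the ratio in L4440, so a gene chosen for a high ratio there tends to a negative difference by construction, and a column that was high or low by itself enters both. In the difference for hda-1, the columns without and with atp-2 RNAi both took part for cyp-14A4, whose log2 ratio of the labelled column to L4440 was 1.61 without and -1.41 with atp-2 RNAi, and for cyp-33C8 (1.02 and -1.55). For cyp-13A5 the corresponding ratios were 1.96 and -0.03, and for cyp-13A8 2.21 and 1.13. The calls of cyp-14A5, cyp-36A1 and cyp-34A9 for dve-1 were lost under both scalings and that of cyp-33E3 for hda-1 under upper-quartile scaling. With a pseudocount of 5 those of cyp-13A7, cyp-13A8 and cyp-33E3 for hda-1 were lost, as were those of cyp-14A5, cyp-36A1, cyp-13A5, cyp-13A8, cyp-35A1 and cyp-33C2 for dve-1, and with one of 0.1 that of cyp-35A1.

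The labelled hda-1 column, without atp-2 RNAi, held higher P450 levels than L4440 across several subfamilies. Against L4440, 24 members were called higher (37.5%, against 8.77% of all genes kept) and 5 lower (7.81%, against 3.25%), and the median log2 ratio was 1.03 beside 0.16 over all genes kept, with 0.92 and 0.94 under the 2 scalings. It was 0.51 with a pseudocount of 5 and 0.73 with no filter on the mean level. By clan, 17 of 36 CYP2-like genes rose and 1 fell, 5 of 14 CYP3-like genes rose and 2 fell, and 2 of 12 CYP4-like genes rose and 2 fell. In 22 members both labelled hda-1 columns were above the other 4 (34.4%, against 25.7% of all genes kept), and in 7 both were below (10.9%, against 18.3%). The 22 take in the 6 members with a mean under 1 over the other 4 columns, which passed the level filter through the columns in which they are high. Among genes with a mean of 1 or more over those 4 as well, a filter added after the data were seen, 16 of 58 members were above (27.6%, against 22.7%), 21 were called higher than L4440 (36.2%, against 7.87%) and the median log2 ratio was 0.84. This comparison set the hda-1 label alone, without stress, against the vector. In these columns the sperm markers were near 0, with 13 of 17 lower, and 2 of the 10 intestine markers were higher, cpr-1 and mtl-2. The part of these differences in the P450 levels was not tested.

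Families 34 and 35, part of which share an array on chromosome V, held 10 of the 24 genes that rose. cyp-34A2 was at 3.98 and 2.18 FPKM in L4440, at 39.5 and 29.1 in the labelled hda-1 columns and at 6.44 and 3.27 in dve-1 RNAi, a log2 ratio of 3.03 for the labelled column over L4440. cyp-34A7 was at 0.716 and 0.369 FPKM, at 12.7 and 4.58, and at 1.21 and 0.389, a log2 ratio of 3.0. cyp-34A4, named dach-1 in the current annotation, was at 4.38 and 2.76, at 24.4 and 17.8, and at 4.35 and 3.13 (2.24). In each of these 3 genes both labelled hda-1 columns were above the 4 others, among which the L4440 and dve-1 RNAi levels overlapped. cyp-34A6 was at 1.97 and 2.30, at 5.13 and 5.28, and at 2.08 and 1.62 FPKM (1.05), a call that both scalings removed. Of the other 34A genes, cyp-34A5 ranged from 0.990 to 4.73 FPKM and had its 2 highest levels in the same columns without reaching 5. cyp-34A8 and cyp-34A9, the abundant members of the subfamily, did not follow. cyp-34A8 was at 30.5 and 45.6 FPKM in L4440, at 54 and 53.9 in the labelled hda-1 columns and at 67.4 and 77.6 in dve-1 RNAi. cyp-34A9, also known as dod-16 among genes regulated by DAF-16, was at 77.5 and 102 FPKM, at 45.1 and 33.1, and at 113 and 68.5. It was lowest in the labelled hda-1 columns, and cyp-34A8 highest in dve-1 RNAi.

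Within family 35, cyp-35B2 was at 0.693 and 1.30 FPKM in L4440, at 15.3 and 14.4 in the labelled hda-1 columns and at 0.0299 and 0.108 in dve-1 RNAi, the last pair about 0.8 and 3.2 fragments. Its log2 ratio of labelled column to L4440 was 3.27. cyp-35B1, or dod-13, another gene regulated by DAF-16, was at 16 and 13.4 FPKM, at 41.3 and 28.8, and at 6.81 and 3.86 (1.31). Both 35B genes were thus highest in the labelled hda-1 columns and lowest in dve-1 RNAi, with L4440 between. cyp-35A5 was at 4.79 and 2.98 FPKM, at 19.3 and 15.2, and at 2.97 and 2.29 (1.81), in the same order of groups. cyp-35D1, which can metabolise the drug thiabendazole, was at 3.48 and 2.18, at 13.2 and 9.15, and at 4.83 and 4.0 FPKM (1.67). Against L4440, cyp-35A1 and cyp-35A3 were higher in the labelled hda-1 columns and in dve-1 RNAi alike. cyp-35A1 was at 0.690 and 0.0385 FPKM in L4440, the second value about 1.1 fragments, at 7.90 and 5.11 in the labelled hda-1 columns and at 8.41 and 1.18 in dve-1 RNAi, with log2 ratios over L4440 of 2.40 and 2.48. cyp-35A3 was at 3.87 and 1.33 FPKM, at 12.1 and 7.09, and at 26.5 and 13.4, with ratios of 1.43 and 2.50. cyp-35A2 was the exception, lower than L4440 in both (-1.44 and -1.11), although it stands next to cyp-35A1. cyp-35A4 was not called in any comparison and ranged from 0.453 to 2.51 FPKM.

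In family 33 the gene nearest to silence on the empty vector had the largest ratio. cyp-33C1 (chromosome V, 2179514 to 2181938) was at 0.0755 and 0.496 FPKM in L4440, about 2.1 and 15.3 fragments, at 12.5 and 11.6 in the labelled hda-1 columns and at 0.227 and 0.206 in dve-1 RNAi. Its log2 ratio of 3.65 was the highest over the 64 members, and its neighbour cyp-33C2 followed at 3.34. cyp-33D3 was at 0.986 and 1.67 FPKM, at 6.35 and 5.67, and at 1.02 and 0.806 (1.89). cyp-33C7 was at 12.6 and 14, at 29.6 and 18.6, and at 13.5 and 11.3 FPKM (1.17). cyp-33C8 also counted as higher (1.02), but this call was lost under both scalings, and that of cyp-33C7 under median-of-ratios scaling. The 33C genes that were not called were cyp-33C3 (2.16 to 4.27 FPKM), cyp-33C4 (4.42 to 9.53), cyp-33C5 (0.496 to 4.61) and cyp-33C9 (30.1 to 58.2). Of these cyp-33C5 had both labelled hda-1 columns above the others. cyp-33D1 ranged from 0.933 to 2.61 FPKM, and cyp-33A1 from 21.9 to 34.5.

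All 8 genes of subfamily 13A had positive log2 ratios of the labelled hda-1 column to L4440, from 1.12 to 2.21 with a median of 1.67, and 4 of them were called. These were cyp-13A8 (2.21), cyp-13A5 (1.96), cyp-13A12 (1.74) and cyp-13A10 (1.61). cyp-13A10, which lies apart from the array, was at 2.49 and 1.75 FPKM in L4440, at 9.64 and 6.37 in the labelled hda-1 columns and at 4.68 and 2.98 in dve-1 RNAi. cyp-13A2 was at 1.67 and 1.97, at 4.8 and 10.5, and at 2.04 and 2.50 FPKM, and was called only between the columns with atp-2 RNAi (1.95). In the related subfamily 13B, cyp-13B1 was at 3.99 and 5.59 FPKM in L4440, at 15.1 and 10.1 in the labelled hda-1 columns and at 41.5 and 14.7 in dve-1 RNAi. It was higher than L4440 in both backgrounds, with log2 ratios of 1.69 and 3.09.

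Outside these families 4 further genes rose in the labelled hda-1 column. cyp-29A3, which acts in eicosanoid production, was at 2.18 and 2.72 FPKM in L4440, at 8.99 and 8.03 in the labelled hda-1 columns and at 5.63 and 4.32 in dve-1 RNAi (log2 ratio 1.65 for the labelled column). cyp-37B1 was at 14.2 and 18.9 FPKM, at 46.5 and 24.3, and at 0.908 and 2.43 (1.65). cyp-36A1, a target of HIF-1 that acts upstream of the nuclear receptor NHR-46, was at 22.6 and 36.8, at 52.4 and 50.8, and at 89.6 and 71.3 FPKM (1.18). The fourth was cyp-14A5 (1.10). The calls of cyp-14A5 under both scalings and of cyp-36A1 under median-of-ratios scaling were lost, and with a pseudocount of 5 those of cyp-14A5, cyp-13A8, cyp-33D3, cyp-13A10, cyp-34A6, cyp-33C7, cyp-35A3, cyp-33C8, cyp-29A3 and, among the lower genes, cyp-29A2.

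The genes that fell were abundant in L4440, where they stood at 77.4 to 141 FPKM. cyp-25A1 (chromosome III, 3832591 to 3834586) was at 141 and 93.0 FPKM in L4440, at 20.3 and 11.1 in the labelled hda-1 columns and at 81.1 and 47.0 in dve-1 RNAi. cyp-25A2, next to it, was at 114.4 and 107, at 26.2 and 18.0, and at 149 and 109 FPKM. Both labelled hda-1 columns were well below the other 4 in both genes, with log2 ratios to L4440 of -2.74 and -2.08 without atp-2 RNAi. Their neighbours were not called, cyp-25A3 ranging from 4.18 to 8.71 FPKM and cyp-25A4 from 3.38 to 5.1. cyp-37A1 was at 98.3 and 64.1, at 41.3 and 27.9, and at 54.6 and 43.2 FPKM (-1.23). cyp-29A2 was at 77.4 and 67.6, at 37.9 and 28.5, and at 80.7 and 52.0 FPKM (-1.01). The fifth gene was cyp-35A2. cyp-43A1, which was not called, also had both labelled hda-1 columns below the others, within a range of 28.8 to 57.5 FPKM.

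**Figure D3:**
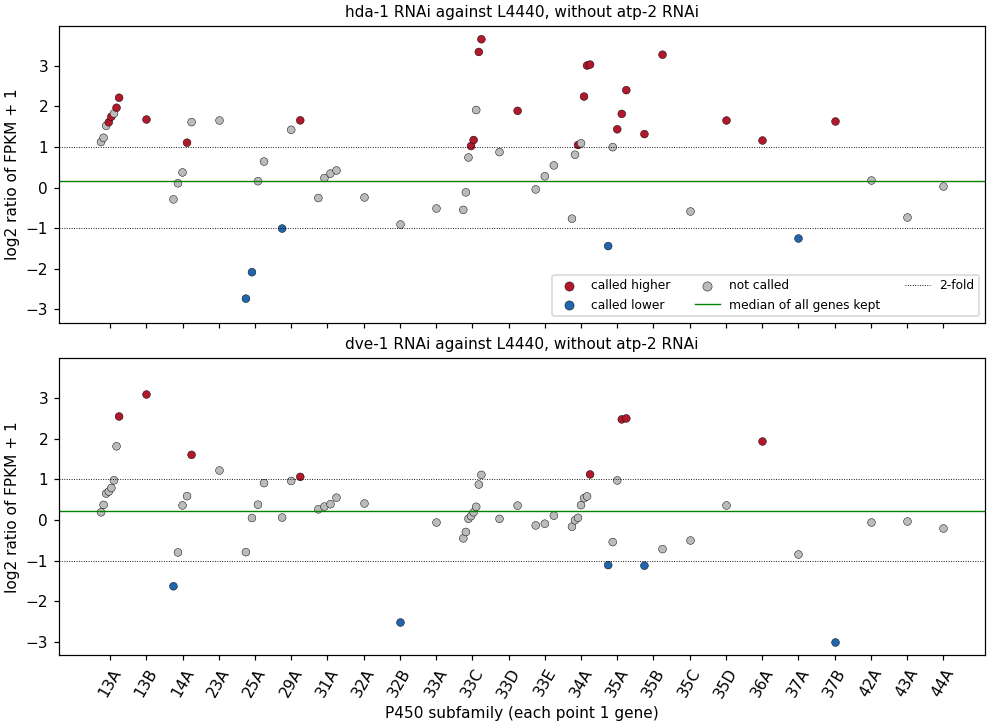
Log2 ratio of FPKM + 1 to L4440 without atp-2 RNAi for each P450 gene, by subfamily, in the labelled hda-1 column (upper panel) and in dve-1 RNAi (lower panel). Dotted lines mark 2-fold and the green line the median of all genes kept; 24 points are called higher and 5 lower in the upper panel, 8 and 5 in the lower.

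The dve-1 RNAi column differed from L4440 in single P450 genes, in both directions. Without atp-2 RNAi, 8 members were called higher (12.5%, against 7.08% of all genes kept) and 5 lower (7.81%, against 2.23%), with a median log2 ratio of 0.33 beside 0.22 over all genes kept. Under both scalings the split was 6 higher and 7 lower. With a pseudocount of 5 the median was 0.11, beside 0.14 over all genes kept. The genes that rose were cyp-13B1, cyp-13A8 (2.55), cyp-35A3, cyp-35A1, cyp-36A1 (1.94), cyp-14A5 (1.60), cyp-34A8 (1.12) and cyp-29A3 (1.06), of which the last pair were lost under both scalings. The genes that fell were cyp-37B1 (-2.99), cyp-32B1 (-2.51), cyp-14A2 (-1.63), cyp-35B1 (-1.12) and cyp-35A2. cyp-37B1 (chromosome V, 16278116 to 16280616), at 0.908 FPKM in dve-1 RNAi against 14.2 in L4440 and 46.5 in the labelled hda-1 column, was called in opposite directions in the 2 backgrounds, as was cyp-35B1. cyp-32B1 was at 38.1 and 32.9 FPKM in L4440, at 19.9 and 11.6 in the labelled hda-1 columns and at 5.84 and 5.36 in dve-1 RNAi. Both dve-1 RNAi columns were above the other 4 in 6 members (9.38%, against 21.3% of all genes kept) and below them in 6 (9.38%, against 7.67%). The comparison asked what targeting dve-1 does without mitochondrial stress, and it shares its L4440 column with that of the labelled hda-1 column. All 17 kept sperm markers were higher in this column, and of the intestine markers cpr-1 and elt-2 were higher and mtl-2 lower. Their part in the P450 levels was not tested. With a pseudocount of 5 the calls of cyp-14A2, cyp-35B1 and cyp-29A3 were lost.

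Between the columns with atp-2 RNAi, members lay in both directions. Against L4440 with atp-2 RNAi, 15 members were higher in the labelled hda-1 column with atp-2 RNAi (23.4%, against 8.43% of all genes kept) and 9 lower (14.1%, against 4.34%), with a median of 0.40 beside 0.13. The split was 12 and 12 under median-of-ratios scaling, 14 and 10 under upper-quartile scaling and 7 higher and 8 lower with a pseudocount of 5. The increases held cyp-34A2 (3.24), cyp-33C1 (3.07), cyp-35B2 (2.74), cyp-35A1 (2.56), cyp-34A4 (2.33), cyp-35A5 (2.02) and cyp-13A2, and then cyp-35A3 (1.80), cyp-35D1 (1.67), cyp-13A10 (1.42), cyp-33D3 (1.32), cyp-29A3 (1.28), cyp-33C2 (1.16), cyp-13A8 (1.13) and cyp-35B1 (1.05). The decreases held cyp-25A1 (-2.96), cyp-25A2 (-2.51), cyp-34A9 (-1.59), cyp-33C8 (-1.55), cyp-32B1 (-1.43), cyp-14A4 (-1.41), cyp-29A2 (-1.22), cyp-37A1 (-1.17) and cyp-14A1 (-1.13). This comparison and that of atp-2 RNAi in L4440 share the L4440 column with atp-2 RNAi. The call of cyp-35A1 was lost under both scalings because its level came under 5 FPKM, and those of cyp-13A8 and cyp-35B1 under median-of-ratios scaling. With a pseudocount of 5 the calls of cyp-35D1, cyp-14A1, cyp-13A8, cyp-33D3, cyp-13A10, cyp-33C2, cyp-35B1, cyp-35A3 and cyp-29A3 were lost.

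In dve-1 RNAi with atp-2 RNAi, against the same column, 2 members were higher (3.12%, against 4.81% of all genes kept) and 9 lower (14.1%, against 2.39%), with a median of -0.10 beside 0.12. Those that were higher were cyp-35A3 (2.62) and cyp-13B1 (1.25). The lower ones were cyp-37B1 (-2.53), cyp-32B1 (-2.42), cyp-14A4 (-1.72), cyp-33C8 (-1.57), cyp-35B1 (-1.57), cyp-14A1 (-1.50), cyp-13A12 (-1.50), cyp-35A2 (-1.38) and cyp-33E2 (-1.37). The L4440 column with atp-2 RNAi is again the shared reference. The call of cyp-13B1 was lost with a pseudocount of 5. Here 14 of the 17 kept sperm markers were higher, and with hda-1 labelled in place of dve-1, 15 were lower. Their part was not tested.

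The CYP4-like and other members not yet given were called in none of the 7 pairwise comparisons, several of them staying under 5 FPKM in every column. The 31A genes, of which cyp-31A2 and cyp-31A3 act with the reductase EMB-8 in making the lipid of the eggshell, were not called in any comparison. cyp-31A1, annotated as a pseudogene, ranged from 5.74 to 7.82 FPKM, cyp-31A2 from 0.974 to 2.45, cyp-31A3 from 1.55 to 3.49 and cyp-31A5 from 1.68 to 2.92. As copies of close sequence they may have lost fragments to the rule on unique mapping. cyp-32A1 ranged from 13 to 22.4 FPKM and cyp-42A1 from 4.87 to 6.38. cyp-29A4 ranged from 0.323 to 2.69 FPKM, with a log2 ratio of 1.42 for the labelled hda-1 column over L4440. cyp-33E1 ranged from 9.90 to 14.3 FPKM and cyp-33E3, beside cyp-33E2 and the shortest member at 890 nt of exon, from 3.01 to 5.76. cyp-44A1, the one mitochondrial-type P450, stayed within 7.38 to 11.1 FPKM, with a log2 ratio of 0.33 for atp-2 RNAi in L4440. cyp-23A1 ranged from 0.247 to 2.95 FPKM and was highest in the labelled hda-1 columns, at a log2 ratio to L4440 of 1.66 without atp-2 RNAi.

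P450 genes less than 20 kb apart formed 12 arrays, which allow neighbours to be set side by side. The array of 13A genes on chromosome II (9779181 to 9807569) holds 9 genes in 28.4 kb, of which 6 were members. Its median log2 ratio for atp-2 RNAi in L4440 was 2.15, and the 4 genes cyp-13A5 to cyp-13A8 at one end had ratios of 2.04 to 2.82, whereas cyp-13A1 (0.20) and cyp-13A2 (0.16) at the other end were near 0. In the array of families 35 and 34 on chromosome V (3936326 to 3972991, 36.7 kb, 11 genes and 9 members) none was called with atp-2 RNAi in L4440, and 6 were higher in the labelled hda-1 column. The 7 members from cyp-35A5 to cyp-34A7 all had both labelled hda-1 columns above the others, as had 25.7% of all genes kept. Of these members, cyp-35B2 and cyp-34A7 passed the level filter through those columns. The next members, cyp-34A8 and cyp-34A9, did not have both above. At the end of the array, cyp-34A10 lay under the filter and was highest in the labelled hda-1 columns, at 0.956 and 0.546 FPKM. In the array of 14A genes on chromosome X (13265041 to 13284197, 19.2 kb) the outer genes cyp-14A1 and cyp-14A4 rose with atp-2 RNAi in L4440 and cyp-14A3 between them fell. The pair cyp-35A1 and cyp-35A2, 4.3 kb from end to end, was called in opposite directions in the labelled hda-1 column and in dve-1 RNAi.

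**Figure D4:**
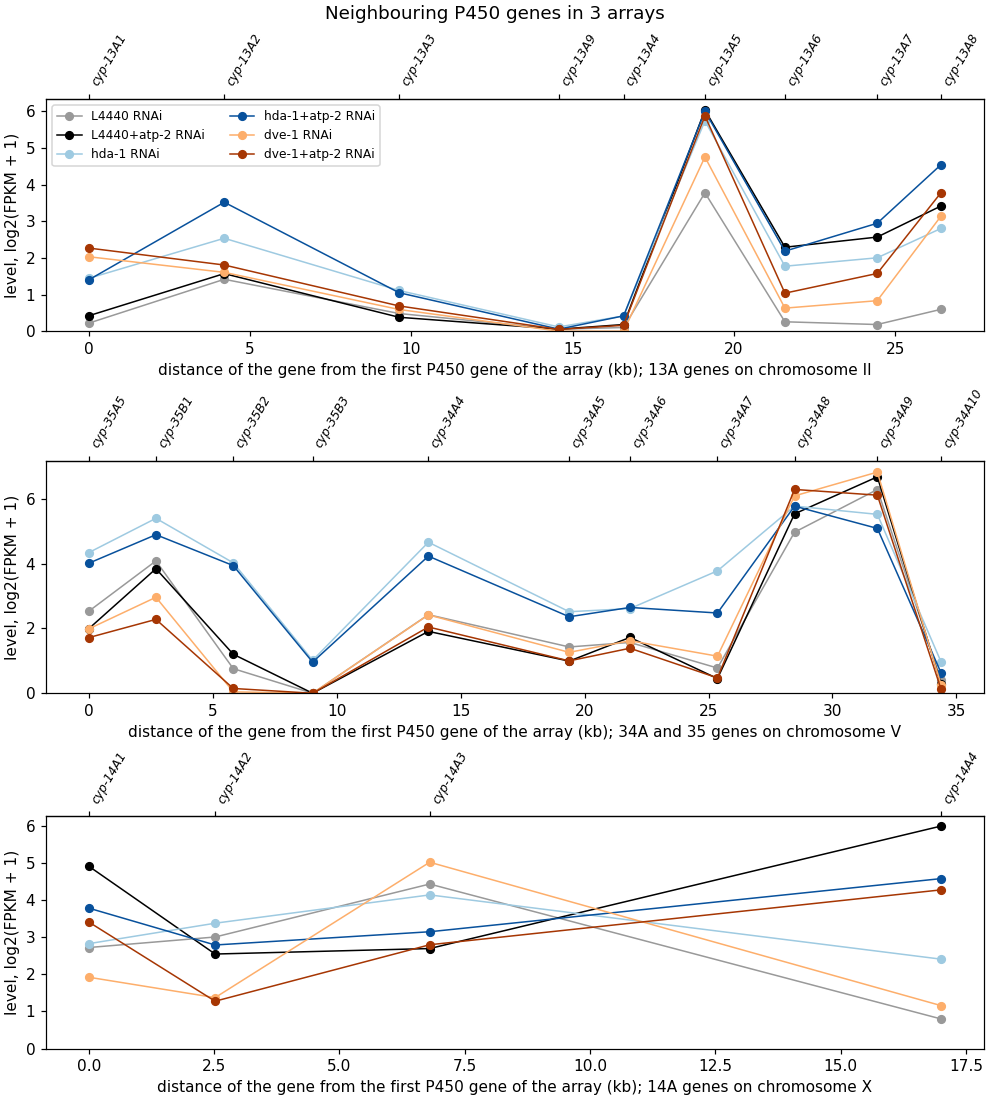
Level, as log2(FPKM + 1), of neighbouring P450 genes against their distance in kb from the first gene of 3 arrays (13A on chromosome II, 34A and 35 on V, 14A on X), with 1 line per group and genes under the level filter included. The L4440 line with atp-2 RNAi parts from that without it at cyp-13A5 to cyp-13A8 and at cyp-14A1 and cyp-14A4, and both hda-1 lines lie above the rest from cyp-35A5 to cyp-34A7.

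Genes on which P450 enzymes depend were followed as lists. Of 3 redox partners, none was called with atp-2 RNAi in any background. With 1.39% to 2.56% of all genes kept called in these comparisons, none of 3 is near that share. emb-8, the P450 reductase, was at 149 and 204 FPKM in L4440, at 106 and 96.5 in the labelled hda-1 columns and at 101 and 105 in dve-1 RNAi, and was lower in the labelled column with atp-2 RNAi (-1.07). cytb-5.1, a cytochrome b5, was at 552 and 503 FPKM, at 213 and 226, and at 393 and 324. It was lower in both labelled hda-1 columns (-1.37 and -1.15), and cytb-5.2 was not called. Worms cannot make haem and take it from food, and of 8 genes of haem uptake and transport 7 were kept. Of these 7 genes, 1 rose with atp-2 RNAi in L4440 (against 1.89% of all genes kept). In the labelled hda-1 columns 0 rose (against 0.742%), and in dve-1 RNAi 4 rose (against 0.997%). With 7 genes, counts of 0 and 1 are too small to tell L4440 and the labelled hda-1 columns apart. asp-10, also named hrg-7, rose in L4440 (1.12) and dve-1 RNAi (1.82). hrg-1 (1.09), hrg-2 (1.85) and hrg-4 (1.57) rose in dve-1 RNAi. Against L4440, asp-10 and hrg-4 were lower in the labelled hda-1 column (-1.02 and -1.50) and asp-10, hrg-4 and hrg-1 with atp-2 RNAi (-1.98, -1.24 and -1.08). In dve-1 RNAi hrg-4 was lower without atp-2 RNAi (-1.11) and hrg-2 higher with it (2.18).

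Of 9 genes of dafachronic acid and sterol metabolism, 8 were kept and 1 was called: dhs-16 was listed at 0 in L4440, at 6.93 FPKM in the labelled hda-1 column and at 3.44 there with atp-2 RNAi. daf-9 encodes another P450, CYP22A1, which makes the hormone of the receptor DAF-12. It bears no cyp name, ranged from 1.17 to 4.71 FPKM and was not called. Of 16 regulators of detoxification 15 were kept. nhr-115, a nuclear receptor gene among those the study followed by qPCR, was at 4.48 and 11.1 FPKM in L4440, at 3.09 and 3.29 in the labelled hda-1 columns and at 4.20 and 5.70 in dve-1 RNAi. It rose with atp-2 RNAi in L4440 (1.14), and it was lower in the labelled column with atp-2 RNAi (-1.50). The intestinal GATA factor gene elt-2 was higher in dve-1 RNAi without atp-2 RNAi (1.04). None of the other 13 was called, among them skn-1, hif-1, nhr-49 and mdt-15. Over all genes kept, 22.7% were called in at least 1 of the 7 pairwise comparisons, and neither the sterol genes nor the regulators exceeded that share. nhr-45, looked up after its values were seen because of cyp-14A4, was at 14.7 and 18.1 FPKM, at 18.6 and 20.3, and at 13 and 13.8, and was not called.

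The 17 cyp genes under the level filter were cyp-13A3, cyp-13A4, cyp-13A9, cyp-13A11, cyp-13B2, cyp-25A5, cyp-25A6, cyp-29A1, cyp-33B1, cyp-33C6, cyp-33C11, cyp-33C12, cyp-34A1, cyp-34A3, cyp-34A10, cyp-35B3 and cyp-35D2. The annotation calls 5 of them pseudogenes. The highest level of any was 2.87 FPKM, for cyp-33B1 in the labelled hda-1 column.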

How the data were processed

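Messenger RNA of whole worms was sequenced on a HiSeq2500. Per the submitters' notes and the study's methods, reads were aligned to ce11 with TopHat2 2.1.1, uniquely mapping reads were kept and gene levels were obtained with Cufflinks. The values deposited by the authors are FPKM, 1 per gene and group with both libraries combined, and were used as they stand. The table holds no counts, so the worth of 1 fragment was read from the spacing of the lowest values (genes of 1000 to 1500 nt), an estimate that covers counting error only. For these libraries, separate cultures within a group are not given in the sources used here. Of 46245 genes, 45990 were matched by identifier to Ensembl release 115 (WBcel235, the assembly of ce11). Genes with a mean of 1 FPKM or more were kept. Log2 ratios used a pseudocount of 1 and understate the change of low genes. Calls needed 2-fold and 5 FPKM in the higher column, or a difference of 1 between log2 ratios. No test was run, as each group has 1 value. Every P450 gene called in a pairwise comparison was named with its 6 levels, the others with their range. P450 members, pathway and marker lists and thresholds were chosen with earlier results of these data known. The calling rule was run on simulated data with counting error alone and changes only in the more abundant genes. That run does not cover replicate spread, the low members or the differences between backgrounds. Alternatives were pseudocounts of 0.1 and 5, no level filter, 2 scalings, a minimum of 1 FPKM and 1.5-fold, and, added after seeing the data, a level filter also on the 4 columns not labelled hda-1. Python 3.11.15 and pandas 2.3.3 were used. No sequence is shown, as none of the tables used here holds one.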

Additional observations from a re-analysis of the deposited data

Results flagged for a closer look

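cyp-13A12 went in opposite directions with atp-2 RNAi in different backgrounds. In L4440 it was at 2.88 FPKM and, with atp-2 RNAi, at 14.5, a log2 ratio of 2.0, whereas it was at 12 and 7.49 in the labelled hda-1 columns, a log2 ratio of -0.62. The difference was -2.61 on the log2 scale. With 1 combined value per group the difference was not tested. In dve-1 RNAi the gene was at 5.70 and 4.50 FPKM, and its level without atp-2 RNAi was lowest in L4440.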

How the results depend on the processing

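No call of a single P450 gene changed sign under any of the 8 alternatives. For a pairwise ratio only the scalings could have changed it, and their shifts are smaller than a call needs. The unchanged signs therefore say little about stability. The balance of higher and lower counts did change. For dve-1 RNAi against L4440 it went from 8 and 5 to 6 and 7 under both scalings. For the labelled hda-1 column against L4440 with atp-2 RNAi it went from 15 and 9 to 7 and 8 with a pseudocount of 5. For atp-2 RNAi in the labelled hda-1 columns it went from 2 and 1 to 2 and 3 under median-of-ratios scaling. Of 122 calls of P450 genes over the 7 comparisons and 2 interactions, 35 were lost with a pseudocount of 5, 1 with a pseudocount of 0.1, 13 under median-of-ratios scaling, 10 under upper-quartile scaling, and 0 with no filter, a minimum of 1 FPKM or 1.5-fold. The level filter was also set on the 4 columns not labelled hda-1, a choice made after seeing the data. Under it, 116 of these calls could be made and 0 of them were lost. That filter changes neither ratios nor thresholds. Dropping the filter, a minimum of 1 FPKM and 1.5-fold each only loosen the calling rule. The counts of 0 under these settings therefore follow from the rule and say nothing about stability. With a pseudocount of 5, the number called went from 29 to 19 for the labelled hda-1 column against L4440, from 24 to 15 for the same with atp-2 RNAi, and from 12 to 6 for the interaction of atp-2 RNAi with dve-1, and that setting shrinks ratios of low genes by construction. For atp-2 RNAi in the labelled hda-1 columns, 3 were called, against 7 with a pseudocount of 0.1, 5 under median-of-ratios scaling and 16 at 1.5-fold (5 higher, 11 lower). At 1.5-fold the count was 17 (5 higher, 12 lower) in place of 8 for atp-2 RNAi in dve-1 RNAi, 21 in place of 13 for dve-1 RNAi against L4440, and 20 in place of 11 for the interaction with hda-1. With a minimum of 1 FPKM it was 17 in place of 11 for dve-1 RNAi against L4440 with atp-2 RNAi. Scaling shifted the median over all genes by up to -0.20 (dve-1 RNAi against L4440). No paired analysis was possible because the table holds 1 combined value per group and its columns carry no replicate numbers, and leaving out a replicate was not possible for the same reason. Depth limits the low members: 12 of 64 never reached 5 FPKM, and ratios to levels of 1 to 3 fragments (cyp-33C1, cyp-35A1 and cyp-35B2) are set largely by the pseudocount.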
